A study of Caenorhabditis elegans with 2 samples.

Results

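Peaks at piRNA genes were examined in the pooled ChIP-seq peak list of CEH-24, an NK-2 class homeodomain transcription factor of Caenorhabditis elegans known for its roles in pharyngeal and vulval muscle cells and in head motor neurons. A pooled peak was counted as a piRNA peak when its summit lay within 250 bp of a gene annotated as piRNA and not within 250 bp of a tRNA, snoRNA, snRNA or rRNA gene. This gave 1001 of 30000 pooled peaks, or 3.34%. Because neighbouring peaks overlap, the 1001 peaks covered 890 separate regions.

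The series holds 2 biological replicates that form 1 group, so no condition was compared with another. Each is a chromatin sample of whole late embryos of both sexes from strain OP673, collected 5 hours after synchronization by egg bleaching. The strain carries the unc-119(tm4063) allele on chromosome III and the transgene wgIs673, which expresses CEH-24 with a C-terminal GFP-FLAG tag, and chromatin was precipitated with an antibody to GFP. Both replicates come from 1 transgenic line, and all cell types of the embryo are mixed in each sample.

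The piRNAs of C. elegans, also called 21U-RNAs, are short germline RNAs that usually begin with uridine and guide the Piwi protein PRG-1 to foreign and some endogenous transcripts. Most are transcribed by RNA polymerase II, each from a tiny gene of its own, and most of these genes crowd into clusters on chromosome IV. Many have an upstream element with the core GTTTC, known as the Ruby motif, and the factors SNPC-4 and PRDE-1 are known to act at the clusters. In whole embryos the germline is a very small share of the cells.

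The annotation held 15363 piRNA genes, each of 21 bp, and 14714 of them (95.8%) lay on chromosome IV. Their sequences show what the summits were measured against. The lines below give, for 6 of the highest piRNA peaks, 70 bases of upstream DNA followed by the 21 bases of the nearest piRNA gene, on the strand of the gene, from the RefSeq genome sequence of WBcel235, which is the ce11 build. Capitals mark the 8-mer CTGTTTCA or, where only the core was present, the GTTTC nearest to the gene, and a line without capitals had neither. The 21ur-13738 gene at chrIV:14877200-14877220 (plus strand) and the 21ur-11280 gene at chrIV:14360286-14360306 (plus strand) had the 8-mer, which began 47 and 46 bases upstream. The 21ur-13032 gene at chrV:11071504-11071524 (minus strand) and the 21ur-4009 gene at chrIV:5608807-5608827 (minus strand) had only the core. The 21ur-11529 gene at chrII:5062095-5062115 (plus strand) and the 21ur-13751 gene at chrII:1320733-1320753 (plus strand) had neither.
21ur-13738: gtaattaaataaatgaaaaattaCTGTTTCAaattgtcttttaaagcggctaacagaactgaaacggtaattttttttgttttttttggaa
21ur-11280: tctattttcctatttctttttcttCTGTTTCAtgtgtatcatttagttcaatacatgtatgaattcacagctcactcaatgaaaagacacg
21ur-13032: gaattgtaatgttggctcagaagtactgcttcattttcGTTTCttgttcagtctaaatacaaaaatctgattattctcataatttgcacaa
21ur-4009: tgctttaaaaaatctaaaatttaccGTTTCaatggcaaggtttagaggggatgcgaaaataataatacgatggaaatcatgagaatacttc
21ur-11529: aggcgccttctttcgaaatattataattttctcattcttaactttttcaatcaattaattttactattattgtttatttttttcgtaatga
21ur-13751: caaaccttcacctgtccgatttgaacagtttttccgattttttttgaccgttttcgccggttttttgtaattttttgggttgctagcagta

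A pair of overlapping pooled peaks lay just upstream of 21ur-13738, and their summit windows, 201 bp on the plus strand, are shown because they include the highest piRNA peak of chromosome IV. The higher peak had its summit 248 bp upstream of the gene, just inside the limit, and its window at chrIV:14876852-14877052 was 49.3% G and C. The lower peak had its summit 44 bp upstream, and its window at chrIV:14877056-14877256 was 26.4% G and C. Capitals mark the 8-mer CTGTTTCA, which was present only in the window of the lower peak, starting at position 14877153, 3 bp before the summit. Neither window held TNAAGTG, the site of NK-2 class factors.
higher peak: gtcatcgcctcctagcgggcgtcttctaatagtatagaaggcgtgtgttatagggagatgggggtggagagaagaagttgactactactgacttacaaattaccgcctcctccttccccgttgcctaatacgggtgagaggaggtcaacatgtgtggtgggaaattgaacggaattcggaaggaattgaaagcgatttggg
lower peak: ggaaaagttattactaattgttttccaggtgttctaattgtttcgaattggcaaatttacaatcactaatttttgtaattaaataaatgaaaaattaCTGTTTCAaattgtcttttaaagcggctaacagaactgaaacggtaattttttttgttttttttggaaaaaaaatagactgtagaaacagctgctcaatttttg

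The pooled signal was 98.7 for the higher peak (rank 298, q = 0.0218) and 76.6 for the lower peak (rank 625, q = 0.0905). Both pooled peaks overlapped the same replicate peaks, with a signal of 48.9 in replicate 1 and 45.5 in replicate 2, so they are not separate observations. Both summits were intergenic with respect to protein-coding genes, and the nearest coding start, of the actin regulator gene eps-8, was 2532 bp from the higher summit.

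The signal value is the authors' own value for each peak. Its scale differs between lists, so it was used to rank peaks within a list, with rank 1 the highest. The rank percentile divides the rank by the length of the list, and a high percentile therefore means a low signal. The number of reads behind each list is not part of the files, so the depth is unknown. Shares are given with Wilson 95% intervals, which cover counting error only, and peaks of a list are not replicates, so no test was made and a gap between intervals describes these lists.

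Peaks at piRNA genes were mostly weak. Their pooled signal ran from 25.5 to 108 with a median of 32.7, whereas the pooled list as a whole ran from 25.5 to 557. The median piRNA peak had rank 17578, a rank percentile of 58.6 (quartiles 31.6 and 80.8), and the median of all other pooled peaks was rank 14919, a percentile of 49.7 (quartiles 24.8 and 74.8). The distributions overlapped widely, and the median signals, 32.7 and 34.8, were close. The peak at the median was that of 21ur-4395 on chromosome IV, with a signal of 32.7 in the pooled list, 26.6 in replicate 1 and 25.1 in replicate 2. The lowest was that of 21ur-7869, ranked 29977, with a signal of 25.5 in the pooled list and 24.1 in replicate 1 and no overlapping peak in replicate 2.

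At a deposited q-value of 0.05 or less stood 2 of the 1001 piRNA peaks (0.200%, interval 0.0548 to 0.726), beside 1.40% of all pooled peaks. The optimal list, which passed the authors' irreproducible discovery rate threshold and matched the 276 highest pooled peaks, held 1 piRNA peak (0.0999%, interval 0.0176 to 0.564), beside 0.920% of all pooled peaks. Among the 1000 highest pooled peaks were 13 piRNA peaks (1.3%, interval 0.761 to 2.21), beside 3.33% of all pooled peaks. All 3 shares were below those of the whole list, and each interval lay below the share of the whole list.

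The shortfall was at the top of the ranking. Of ranks 1 to 276, 0.362% were piRNA peaks, and of ranks 277 to 1000, 1.66% (12 peaks). The share was 2.05% at ranks 1001 to 5000 (82 peaks, interval 1.65 to 2.54), and then 3.50% at ranks 5001 to 10000 and 3.3% at ranks 10001 to 20000. It was highest in the last class, ranks 20001 to 30000, at 4.01% (401 peaks, interval 3.64 to 4.41). For scale, 3.67% of the bases of the genome met the same distance rule, so that from rank 5001 on the shares were near the share of bases.

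**Figure D1:**
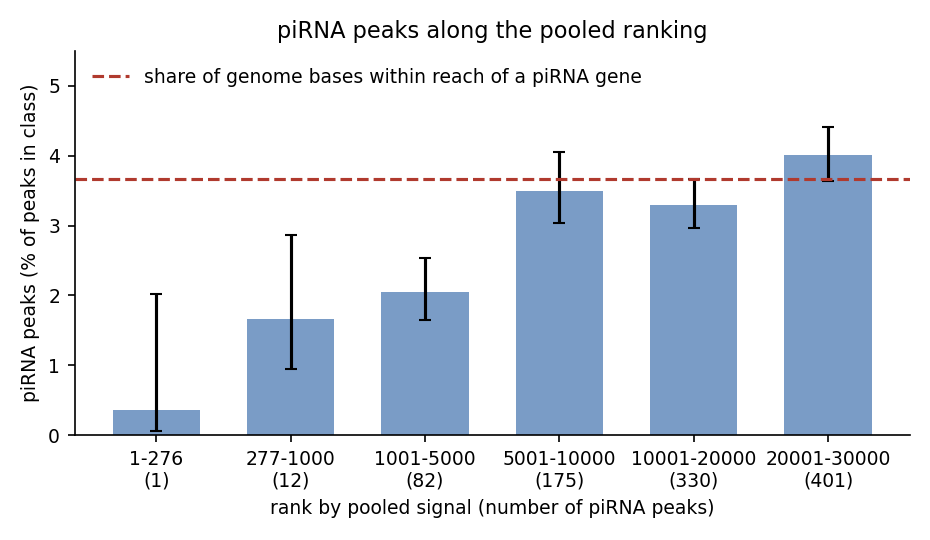
Share of piRNA peaks (y axis, percent of the peaks in the class) in 6 classes of pooled rank (x axis, number of piRNA peaks in brackets). Bars are shares, error bars Wilson 95% intervals, and the dashed line is the 3.67% of genome bases within reach of a piRNA gene. All classes but the last lie below the line, those past rank 5000 close to it, and the last class reaches 4.01%.

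Peaks at other kinds of gene give a scale for these values, as a description. Genes for tRNAs are short like piRNA genes but are transcribed by RNA polymerase III. Of 423 pooled peaks with a summit within 250 bp of a tRNA gene, 130 (30.7%, interval 26.5 to 35.3) had a q-value of 0.05 or less, and their median rank percentile was 7.47. Of 1607 peaks at genes of the ncRNA biotype, 42 (2.61%) had such a q-value, with a median percentile of 41.1. Peaks within 250 bp of a protein-coding start, and not of a piRNA, tRNA, snoRNA, snRNA or rRNA gene, numbered 4462. Of these, 2.35% were at that q-value, and the median percentile was 46.0. Genes of the ncRNA biotype were not excluded from this class, so it shares 236 peaks with the ncRNA class. The piRNA peaks had the lowest share of the 4 classes.

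The exclusion of the other RNA kinds took a few peaks from the top of the list. It removed 14 peaks that also lay near a piRNA gene, 11 of them at tRNA genes, 2 at snRNA genes and 1 at a snoRNA gene. Their median rank percentile was 24.4, and 2 of them had a q-value of 0.05 or less. The higher of these, with a signal of 139 and rank 146, had its summit inside a tRNA gene and 115 bp from 21ur-5229. The other, with a signal of 86.4 and rank 414, lay 6 bp from a tRNA gene and 209 bp from 21ur-5344. With all 14 kept, 0.394% of 1015 peaks had a q-value of 0.05 or less and 0.197% were in the optimal list. Both shares were still below the 1.40% and 0.920% of all pooled peaks.

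On chromosome IV lay 893 of the 1001 piRNA peaks (89.2%), beside 95.8% of piRNA genes and 16.9% of all pooled peaks. The share of genes is not a like measure, because the reaches of crowded genes overlap. Of the 3683483 bases within reach of a piRNA gene, 3356124 were on chromosome IV. The density of peaks near piRNA genes was close to that elsewhere in the pooled list, and the direction of the difference varied. Over the genome there were 27.2 piRNA peaks per 100 kb of sequence within reach of a piRNA gene and 30 other peaks per 100 kb beyond it, a ratio of 0.905. On chromosome IV alone the densities were 26.6 and 29.4 per 100 kb, and on the other chromosomes 33.0 and 30.1 per 100 kb. The density was thus lower near piRNA genes on chromosome IV and higher off it. By list, piRNA peaks were 3.34% of pooled peaks, 4.19% in replicate 1 and 2.31% in replicate 2, beside 3.67% of bases within reach, so replicate 1 lay above that share and replicate 2 below it.

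The clusters were defined as the 60 bins of 100 kb on chromosome IV with 20 or more piRNA genes, which held 14345 piRNA genes (93.4%) in 5.98% of the genome. They held 1601 pooled peaks (5.34%), 843 of them piRNA peaks. Inside the clusters 53.0% of the bases were within reach of a piRNA gene and 52.7% of the peaks were piRNA peaks, with 26.5 peaks per 100 kb within reach and 26.9 beyond it. A cluster bin had a median of 220 piRNA genes and 25.5 pooled peaks (range 14 to 47), 14 of them piRNA peaks (range 2 to 34). The other 114 bins of chromosome IV had a median of 30 pooled peaks (range 8 to 54), and the 34 bins with no piRNA gene a median of 34.0. The number of peaks per bin in the clusters was thus within the range of the rest of the chromosome.

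**Figure D2:**
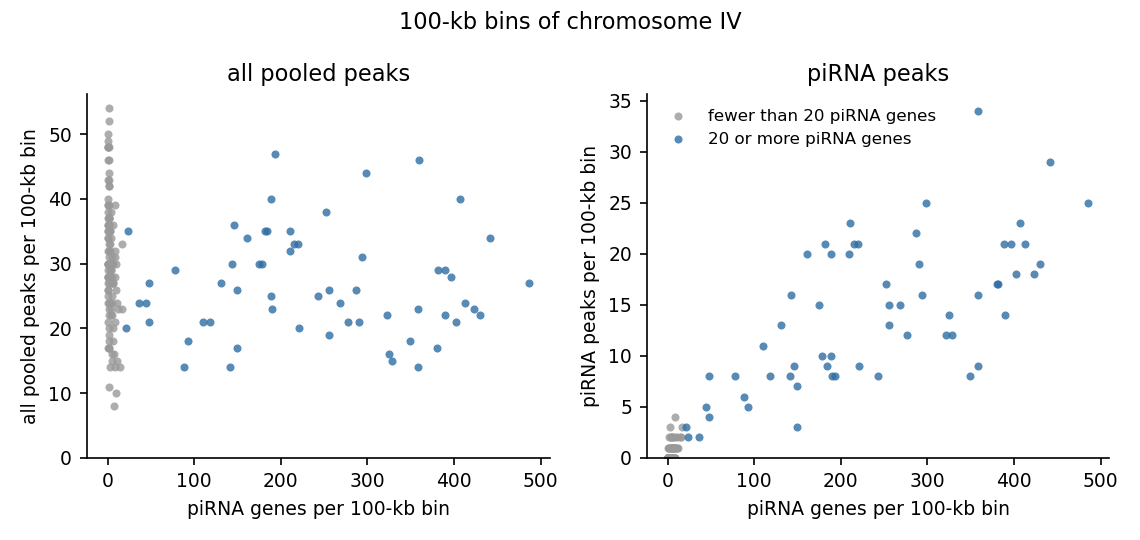
Bins of 100 kb on chromosome IV, with the number of piRNA genes in the bin (x axis) against the number of all pooled peaks (left, y axis) and of piRNA peaks (right, y axis); the incomplete last bin is left out. Blue points are the bins with 20 or more piRNA genes, which hold 14 to 47 pooled peaks each, and grey points are the other bins, which hold 8 to 54.

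Over all 60 cluster bins, piRNA peaks ranked below their neighbours. Their median rank percentile was 59.5, and that of the other 758 peaks in the same bins was 50.2. In the left cluster, at positions 4800001 to 6700000 with 2694 genes in 19 bins, the medians were 52.9 for 246 piRNA peaks and 50.1 for 265 other peaks. In the right cluster, at positions 13500001 to 17300000 with 11534 genes in 38 bins, they were 62.3 for 582 piRNA peaks and 49.5 for 440 other peaks. In these 2 large clusters the piRNA peaks had the higher percentile, the lower rank, in the pooled list and in each replicate list. Replicate 1 gave 50.9 against 47.9 in the left cluster and 56.9 against 46.1 in the right, and replicate 2 gave 58.0 against 53.8 and 54.2 against 46.5. Which cluster had the weaker piRNA peaks differed between the replicates, the right in replicate 1 and the left in replicate 2. The small runs of cluster bins differed from this. At positions 6800001 to 7000000, 12 piRNA peaks had a median of 44.9 against 52.0 for 36 other peaks, and the order was the same in replicate 1 (43.5 against 50.1) and replicate 2 (47.2 against 56.9), so piRNA peaks ranked higher there. At positions 9100001 to 9200000, 3 piRNA peaks had 88.1 against 45.0 in the pooled list and 47.5 against 44.2 for 4 piRNA peaks in replicate 1, and 45.9 against 57.9 for 2 in replicate 2.

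Away from chromosome IV the 108 piRNA peaks had a median rank percentile of 52.6, closer to the 49.6 of the other peaks on those chromosomes. The X chromosome had 25 of them (median percentile 55.7), chromosomes V and II had 22 each (57.6 and 49.6), chromosome I had 20 (38.2) and chromosome III had 19 (71.6). The medians of the other peaks of these chromosomes were between 47.8 and 51.8. Each of these chromosomes thus rests on 19 to 25 peaks, and both the lowest and the highest median were among them. Of these 108 summits, 49.1% were within 1000 bp of a protein-coding start, compared with 25.8% of the 893 summits on chromosome IV. For the other peaks the shares were 44.3% off chromosome IV and 48.4% on it.

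The only piRNA peak in the optimal list lay on chromosome I with its summit at position 12652315, 70 bp upstream of 21ur-12279. Its signal was 108 in the pooled list (rank 247, q = 0.0183), 41.7 in replicate 1 and 50.5 in replicate 2. The same summit lay in an exon of atp-1, which encodes the alpha subunit of mitochondrial ATP synthase, 38 bp downstream of its annotated start. At this site a coding promoter and a piRNA gene cannot be told apart by position. The 201-bp window held neither the Ruby core nor TNAAGTG, and its G and C content was 52.2%.

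The 15 highest piRNA peaks, which reached from rank 247 to rank 1155, had pooled signals from 66.1 to 108. Of the 15, 11 were on chromosome IV and 10 in the clusters. Of the 15 summits, 7 were within 1000 bp of the start of a protein-coding gene, beside 28.3% of all piRNA peaks and 44.9% of the other pooled peaks. Only 1 piRNA gene was in reach of 9 of the 15, beside 47.0% of all piRNA peaks. The median G and C content of their windows was 40.3%. The motif TNAAGTG was in the window of 2 of them, those of 21ur-2764 and 21ur-8645. These 15 were picked by signal, so these counts only describe them.

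The third highest piRNA peak lay 51 bp upstream of 21ur-14659 on chromosome IV, in an intron of the glutathione S-transferase kappa gene gstk-2. Its signal was 85.6 in the pooled list (rank 423), 35.9 in replicate 1 and 49.8 in replicate 2. The highest on chromosome V had its summit 7 bp from 21ur-13032, with 81.1 in the pooled list (rank 514), 34.0 in replicate 1 and 41.0 in replicate 2. It was intergenic and 1767 bp downstream of the start of the actin gene act-3. Both were higher in replicate 2, on the scales of the separate lists.

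Several high peaks were near starts of genes with known roles. The peak at 21ur-12264, 742 bp upstream of the stress-activated kinase gene jnk-1, had a signal of 80.4 in the pooled list, 47.0 in replicate 1 and 33.4 in replicate 2. The peak at 21ur-4009, in an exon of the forkhead factor gene fkh-7 and 232 bp downstream of its start, had 80.1 in the pooled list, 48.4 in replicate 1 and 31.4 in replicate 2. On chromosome II, the peak at 21ur-11529 lay 82 bp upstream of smc-5, a gene of the SMC5/6 genome maintenance complex. Its signal was 74.9 in the pooled list, 41.6 in replicate 1 and 34.2 in replicate 2. Also on chromosome II, the peak at 21ur-13751 lay 459 bp upstream of vig-1, which encodes a component of the RNA-induced silencing complex. It had 74.6 in the pooled list, 39.0 in replicate 1 and 52.7 in replicate 2, its only q-value of 0.05 or less being in replicate 2 (q = 0.0252).

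The remaining 6 of the 15 were on chromosome IV, with pooled signals from 66.1 to 71.6. The peak at 21ur-13699, in an intron of the netrin receptor gene unc-5, had a signal of 50 in replicate 1 and 22.2 in replicate 2. The peak at 21ur-2764, 380 bp upstream of the calpain gene tra-3, had 42.5 and 24.1. Those at 21ur-3556 and 21ur-11280 had 34.8 and 37.8 in replicate 1 and 35.3 and 29.3 in replicate 2. The replicates disagreed most for the others. The peak at 21ur-8645, in an intron of the cation-chloride cotransporter gene kcc-2, overlapped a peak only in replicate 1 (48.0), and that at 21ur-121 only in replicate 2 (41.7). On the X chromosome the highest piRNA peak was at 21ur-15079 in an exon of the syndecan gene sdn-1, with 54.6 in the pooled list (rank 2819), 36.1 in replicate 1 and 17.7 in replicate 2. On chromosome III it was at 21ur-14211 in an intron of lit-1, a Nemo-like kinase gene of Wnt signalling, with 44.0 in the pooled list (rank 6894), 20.9 in replicate 1 and 22.0 in replicate 2.

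**Figure D3:**
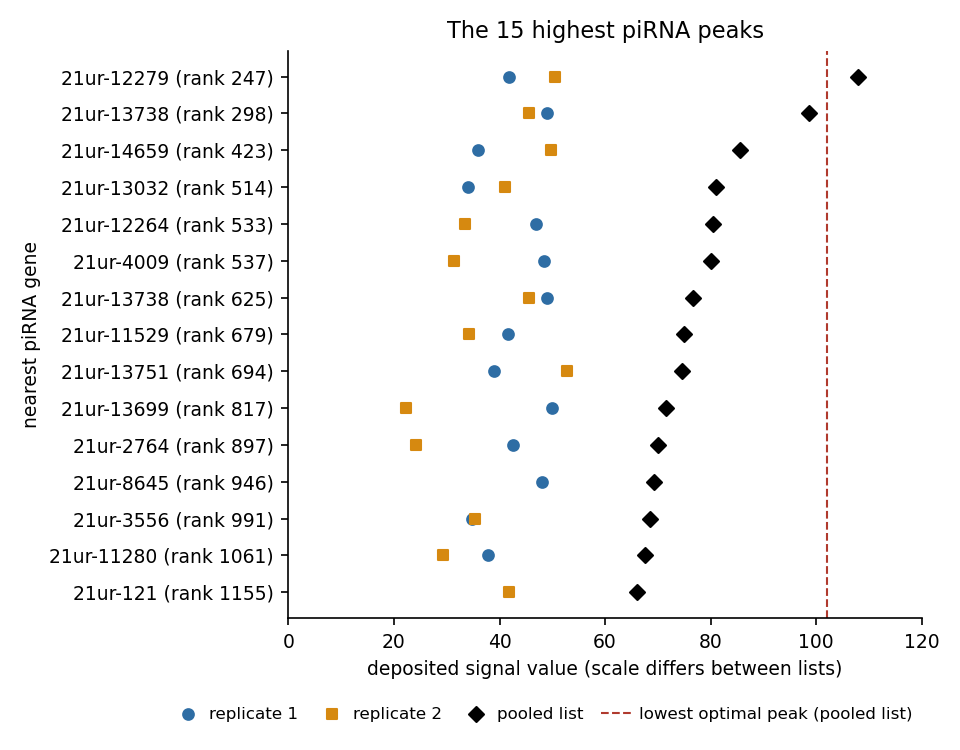
Deposited signal values (x axis; the scale differs between lists) of the 15 highest piRNA peaks, named by the nearest piRNA gene with the pooled rank (y axis). Black diamonds are the pooled list, blue circles replicate 1 and orange squares replicate 2; a missing circle or square means that no peak of that replicate overlapped, and only the 21ur-12279 peak lies above the lowest optimal peak (dashed line, 102).

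The replicates differed in how many piRNA peaks they held. The list of replicate 1 had 1257 among 30000 peaks (4.19%, interval 3.97 to 4.42) and that of replicate 2 had 650 among 28119 (2.31%, interval 2.14 to 2.49), against 3.67% of bases within reach. Base composition moved with this difference: the median window was 33.8% G and C in the list of replicate 1 and 37.3% in that of replicate 2. Among windows under 30% G and C the piRNA share was 7.86% in replicate 1 and 5.48% in replicate 2, and among the rest it was 2.63% and 1.73%. The share was lower in replicate 2 in each of these classes, which are wide. The part of base composition in the difference between replicates was not tested.

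At a q-value of 0.05 or less, the list of replicate 1 had 0 of its 1257 piRNA peaks, beside 0.760% of all its peaks. That of replicate 2 had 6 of its 650 (0.923%), beside 2.59% of all its peaks. Both shares were below those of the whole lists. The 6 were at 21ur-13751, 21ur-12786, 21ur-12279, 21ur-14659, 21ur-13738 and 21ur-1894, with signals from 45.1 to 52.7. Those at 21ur-12786 and 21ur-1894 overlapped no peak in replicate 1. Median rank percentiles were 55.4 for piRNA peaks and 49.8 for other peaks in replicate 1, and 53.6 and 49.9 in replicate 2, so piRNA peaks ranked lower in each replicate, by less than in the pooled list.

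Fewer piRNA peaks were shared between the replicates than other peaks. Of the 1001, 718 (71.7%, interval 68.9 to 74.4) overlapped a replicate 1 peak by 1 bp or more and 483 (48.3%, interval 45.2 to 51.3) a replicate 2 peak. Both were overlapped by 306 (30.6%, interval 27.8 to 33.5), beside 40.9% of the other pooled peaks (interval 40.3 to 41.4), and neither by 106 (10.6%), beside 7.15%. The overlap with replicate 1 was close to that of the other peaks, 69.9%, and the gap was in replicate 2, where 63.8% of the other peaks overlapped. Over the 306 shared piRNA peaks, the signals of the replicates had a Spearman correlation of 0.133, and over 11848 other peaks of 0.215. On chromosome IV the values were 0.0614 for 271 piRNA peaks and 0.186 for 1676 others, and off it the order was the opposite, 0.549 for 35 piRNA peaks and 0.219 for 10172 others. The replicates were made with the same control, so their values are not fully separate. Of the 306 shared piRNA peaks, 4 overlapped peaks among the 1000 highest of both replicate lists, beside 538 of the 11848 other shared peaks. These 4 stood at 2 places, those of 21ur-12279 and 21ur-13738, with a pair of pooled piRNA peaks at each.

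The sequence around piRNA summits was richer in A and T than around other summits. The median G and C content of the 201-bp window was 30.3% for piRNA peaks (quartiles 27.4 and 35.3) and 35.3% for the others (quartiles 30.8 and 40.3). It was 29.4% for summits within 50 bp of a piRNA gene and 34.3% for those at 201 to 250 bp. The content of all bases within reach was not measured. How much of this difference the choice of peaks near piRNA genes fixes is therefore unknown. In the pooled list the windows poorest in G and C also ranked lowest, with a median percentile of 54.9 under 30% and 48.3 from 30% up. Within each class of G and C content piRNA peaks still ranked lower. At 30 to 35% the medians were 58.6 for 269 piRNA peaks and 51.5 for 7789 others, and at 40% or more they were 58.6 for 95 and 43.0 for 7851. The smallest gap was at 25 to 30%, with 57.7 for 340 piRNA peaks and 54.4 for 5034 others. Against the other peaks of the clusters this class had the opposite order, 57.7 against 61.3 for 117 peaks, and the class of 35 to 40% had about the same value, 53.6 against 53.7.

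Fewer piRNA summits than other summits were close to coding genes. A protein-coding start was within 1000 bp of 28.3% of them (interval 25.6 to 31.1) and of 44.9% of the others, and 42.6% were inside a protein-coding gene, compared with 59.6%. An intron held 299 of the 1001 summits and an exon 127. Over 1000 bp from a start, a class chosen after seeing the data, the median percentile was 60.2 for 718 piRNA peaks and 51.0 for 15991 others. The part of distance from coding starts in the rank of piRNA peaks was not tested. Repeated sequence was less common at piRNA peaks, with a 31-mer found elsewhere in the genome in 10.2% of windows, compared with 18.5%. This was not particular to them, as the share was 10.5% at ncRNA peaks and 6.97% at coding start peaks. At tRNA peaks it was 66.4%. In windows without such a 31-mer the median percentiles were 59.2 for piRNA peaks and 50.2 for all others.

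Summits were spread around the piRNA genes. The median distance from summit to gene was 89.0 bp, and 75 summits lay inside a gene. Measured on the strand of the gene, 438 of 1001 summits (43.8%, interval 40.7 to 46.8) were upstream of the 5′ end, where 47.2% of the bases within reach lay. Per 100 kb of such bases there were 21.3 summits in the 50 bp upstream of the 5′ end, where the Ruby motif lies (exact Poisson interval 17.7 to 25.5), and 29.9 in the 50 bp from the 5′ end on (25.7 to 34.7). There were 22.3 in the next 50 bp downstream and 31.0 between 200 and 250 bp upstream. The class just upstream of the 5′ end had the lowest density of all 11 classes with bases in reach, but its interval overlapped those of several others. Among these were the classes 50 to 100 bp upstream, with 23.2 (18.9 to 28.2), and 50 to 100 bp downstream, with 22.3 (18.2 to 27.0). The low density was thus not particular to the class where the motif lies.

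**Figure D4:**
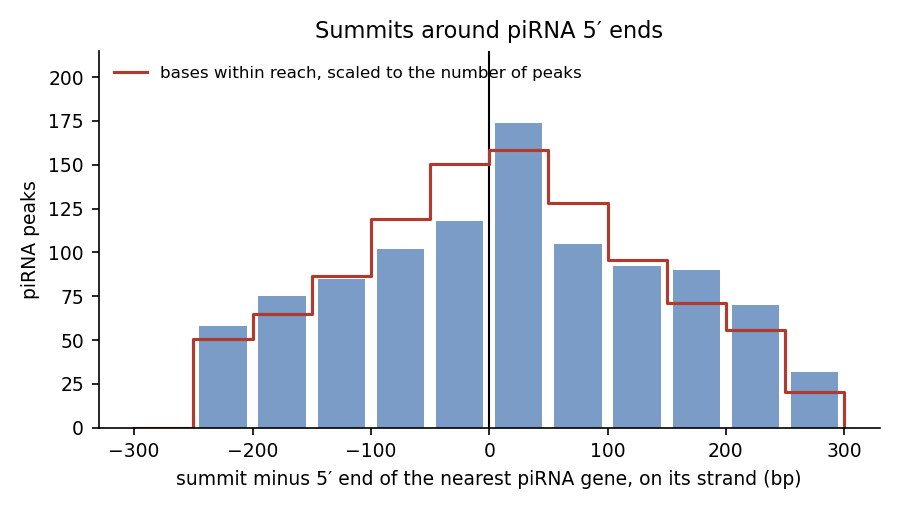
Number of piRNA peaks (y axis) by the offset of the summit from the 5′ end of the nearest piRNA gene, in classes of 50 bp on the strand of the gene (x axis, negative upstream). The red outline gives the bases within reach by the same offset, scaled to 1001; the class just upstream of the 5′ end holds 118 summits and lies below the outline.

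Rank did not change evenly with distance. The 125 piRNA peaks with a summit 201 to 250 bp from a gene had a median rank percentile of 59.5, like the 344 within 50 bp (58.8), and the 86 peaks at 251 to 300 bp, just outside the limit, had 50.5. Farther out the median was 52.0 for 238 peaks at 301 to 500 bp and 56.8 for 360 peaks at 501 to 1000 bp. The number of genes in reach was 1 for 470 peaks, 2 for 258 and at most 10. The median percentile was 55.5 with 1 gene in reach, 58.0 with 2, 62.3 with 3 and 63.9 with 4, and 52.2 for the 30 peaks with 5.

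The upstream motif was compared between piRNA genes near a peak and the others. A piRNA peak lay within 250 bp of 1871 of 15363 piRNA genes (12.2%, interval 11.7 to 12.7), one at a q-value of 0.05 or less near 2 genes and the optimal one near 1. These were 1767 of 14714 genes on chromosome IV and 104 of 649 off it. A like share for other positions of the genome was not computed, so 12.2% alone does not show an excess of peaks at piRNA genes. By the densities given above, peaks near piRNA genes were less dense than elsewhere on chromosome IV and denser off it. The 8-mer CTGTTTCA, searched on the strand of the gene in the 70 bases upstream, was present for 35.2% of the genes near a piRNA peak (interval 33.0 to 37.4) and for 33.4% of the others (interval 32.6 to 34.2). The core GTTTC, which is part of the 8-mer, was present for 75.2% and 74.4%. On chromosome IV the 8-mer was upstream of 36.8% of genes near a piRNA peak and 34.5% of the others, and elsewhere of 6.73% and 6.79%. The gene itself began with T, the DNA letter for the uridine of the RNA, in 96.3% and 96.2%.

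The motif was also counted by rank. The gene nearest to the summit had the 8-mer for 334 of 1001 piRNA peaks (33.4%, interval 30.5 to 36.3), beside 33.6% of all piRNA genes. The share was 35.8% at ranks 1 to 5000 (interval 26.9 to 45.8), 34.3% at ranks 5001 to 10000, 33.9% at ranks 10001 to 20000 and 31.9% above rank 20000 (interval 27.5 to 36.6). The share with the 8-mer was slightly higher in each class nearer the top, and the intervals of the first and last class overlapped. The core GTTTC did not follow this order. It was lowest at ranks 1 to 5000, with 68.4% (interval 58.5 to 76.9). It was 74.3% at ranks 5001 to 10000, 72.1% at ranks 10001 to 20000 and 71.6% above rank 20000. A trend with rank was not tested. Of the 15 highest peaks, 3 had a nearest gene with the 8-mer, a pair of them the peaks at 21ur-13738.

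Motifs were also searched on both strands in the 201-bp summit windows. The 8-mer CTGTTTCA was in 20.7% of piRNA windows and 0.866% of all other pooled windows, a difference that the choice of peaks near piRNA genes largely fixes. The NK-2 site TNAAGTG was in 10.2% of piRNA windows (interval 8.47 to 12.2) and 9.04% of the others (interval 8.72 to 9.38). The B box of RNA polymerase III genes, searched as GTTCNANNC, was in 5.69% (interval 4.42 to 7.31) and 7.19%, compared with 57.9% of the windows of peaks at tRNA genes. The shares of NK-2 sites and B boxes at piRNA peaks were thus near those of the pooled list. A match describes letters and is not a site of binding.

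Genes of the piRNA pathway were examined for peaks near their own starts, upstream or downstream. Of 35 listed genes, 30 matched an annotated protein-coding gene, and 14 of the 30 (46.7%, interval 30.2 to 63.9) had a pooled summit within 1000 bp of a start, beside 49.9% of all 19973 protein-coding genes. At a q-value of 0.05 or less there were 0 of 30, beside 1.72% of all protein-coding genes. Both counts were near those of protein-coding genes in general. No pooled summit was near prg-1, which encodes the Piwi protein itself. The names prg-2, snpc-3.3, tofu-3, pics-1 and tfiis-1 were not matched.

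The best ranked pathway peak, with rank 1961, was 932 bp downstream of a start of prde-1, whose product is needed for transcription of the clusters. Its signal was 58.7 in the pooled list, 27.9 in replicate 1 and 16.5 in replicate 2. The snpc-4 gene, for the small nuclear RNA activating complex subunit that binds the clusters, had 36.1 in the pooled list and 31.9 in replicate 2 and no peak in replicate 1. The gene snpc-3.4, named for another subunit of that complex, had 41.6 in the pooled list, 20 in replicate 1 and 23.6 in replicate 2. The AT-hook factor gene attf-6 had 49.0 in the pooled list, 22.8 in replicate 1 and 16.3 in replicate 2. These genes of piRNA transcription were all far below the lowest optimal peak, which had a pooled signal of 102.

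Genes acting after transcription had like values. The schlafen-domain gene slfl-3, of the complex that cuts the 5′ end of piRNA precursors, had 51.7 in the pooled list and 37.3 in replicate 2 and no peak in replicate 1. The genes erh-2 and pid-1, of the PETISCO complex that binds piRNA precursors, had 48.8 and 31.6 in the pooled list. Each was overlapped by a peak of only 1 replicate, 29.2 in replicate 2 for erh-2 and 22.5 in replicate 1 for pid-1. The nuclease gene xrn-2 had 49.1 in the pooled list, 16.7 in replicate 1 and 31.7 in replicate 2. The genes pid-2 and pid-5, known for piRNA-induced silencing, had 51.6 and 42.3 in the pooled list, with a peak of 35.5 in replicate 1 for pid-2 and of 32.7 in replicate 2 for pid-5. The other 4 genes with a peak, tofu-4, tofu-6, pid-4 and trcs-1, had pooled signals from 25.9 to 30.6. They were not sorted into genes of transcription and genes acting after it.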

How the data were processed

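Chromatin immunoprecipitation peak lists of 2 biological replicates of 1 group were used. Per the file headers, the authors deposited a relaxed list of peaks and background for each replicate and for both pooled, and a list of optimal peaks past the irreproducible discovery rate threshold. Replicates and pool were made with the same control. The signal of each peak is the authors' deposited value, and so is the −log10 q-value, which was turned into a q-value. The software used to align reads and call peaks was not given in the sources used here. Lists on ce10 were not used.

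Peak positions on ce11 were compared with Ensembl release 115 genes and the RefSeq sequence of WBcel235 with Python 3.11.15, using pandas 2.3.3 and numpy 2.4.6 for tables, scipy 1.17.1 for intervals and matplotlib 3.10.9 for figures. Of the pooled peaks, 29967 spanned 496 bp. Windows held 100 bp on each side of the summit. Overlap meant 1 bp or more. The steps were tested on simulated data. Peaks described singly were those in the optimal list or with a q-value of 0.05 or less, the 15 of highest pooled signal, the highest on each chromosome, and those of median and lowest rank. The pathway list is described by its counts and its 10 highest genes. The piRNA peaks, motifs and gene list were chosen with earlier results of these data known. Other windows, exclusions, overlaps, q-values, motifs and single replicate lists were tried as alternatives.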

Additional observations from a re-analysis of the deposited data

How the results depend on the processing

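The margin was a factor of 1.5 for a count, the Wilson 95% interval of the main value for a share, and 1.24 for the median rank percentile, which is the SD of the replicate medians. These margins differ in width, and that of the share at a q-value of 0.05 or less, which rests on 2 peaks, is wide. Under the alternative settings, 34 values stayed within the margin and 19 moved beyond it. With a window of 100 bp there were 538 piRNA peaks (1.79% of the list, 91.8% on chromosome IV). With 500 bp they were 4.42% of the list, with a median rank percentile of 56.5 and 85.4% on chromosome IV. In the single replicate lists the count ranged from 650 to 1257, the share of the list from 2.31% to 4.19%, the share at a q-value of 0.05 or less from 0% to 0.923%, and the median rank percentile from 53.6 to 55.4. At a q-value of 0.01 or less the share was 0%. The core GTTTC was upstream of 71.9% of the nearest genes. Overlap with 1 replicate list alone ranged from 48.3% to 71.7%, and overlap with both by 50% or more of the peak was 21.9%. Among alternatives chosen after seeing the data, summits over 1000 bp from a coding start had a median percentile of 60.2. Of the others, the windows of 30 to 35% G and C and those without a repeated 31-mer stayed within the margin. So did the number of pathway genes, 14 in each replicate list, which need not be the same genes. Several pooled pathway peaks overlapped a peak of only 1 replicate. The median percentile was above 50 under every alternative run. The cause of these movements was not tested, apart from the wider and narrower windows, which take in more and fewer peaks by construction. No paired analysis was possible because the samples form 1 group. Since the lists hold no read totals, what depth limits could not be assessed.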
